A study of Homo sapiens with 8 samples.

Results

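RFX7 binding was examined beside 4 genes of mitochondrial function, ABAT, COQ10A, COQ10B and ATP5IF1, out of 20037 protein-coding genes placed on GRCh38. The genes were chosen from the positions of the deposited intervals themselves: all rows were taken whose midpoint lay inside the gene or within 10 kb of either end. The study used ChIP-seq, the sequencing of DNA pulled down with an antibody, here against RFX7. The cells were U2OS, an osteosarcoma line of human origin that keeps functional p53. Cells received 10 µM Nutlin-3a, which stabilises p53 by blocking MDM2, or the solvent DMSO, for 24 h, and each treatment had 2 RFX7 immunoprecipitates and 2 input DNA samples. For each treatment the authors deposited 1 merged list of intervals, 304 after Nutlin-3a and 213 after DMSO. Values therefore exist once per treatment and carry no replicate error. The read depth behind each list is unknown, so fold enrichment and −log10 q (both the authors' values, read as higher for stronger enrichment over background) are given as ranks within a list and were not compared between lists. Tied intervals share the smallest rank, so a rank can belong to several intervals.

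RFX7 belongs to the regulatory factor X family, whose DNA-binding domain recognises the X-box, a pair of inverted half-sites in the promoters of target genes. It is known to act downstream of p53. ABAT is the transaminase of the mitochondrial matrix that begins the breakdown of the neurotransmitter GABA, and it also serves mitochondrial nucleotide supply. COQ10A and COQ10B are paralogous lipid-binding proteins, related to yeast Coq10, that bind coenzyme Q, the electron carrier of the inner membrane, and are needed for its work in respiration. ATP5IF1 is the inhibitor of the ATP synthase, which stops the enzyme from hydrolysing ATP when the membrane potential falls.

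Sequences are shown first because the intervals of 3 of the genes lay at their starts. RefSeq promoter windows (GRCh38.p14, 250 bases before to 50 bases after an annotated start, all on the plus strand) were found for 4 of 4 genes, 9 windows in all. Capitals mark a match to the 14-letter X-box with at most 3 mismatches or, in a window without one, a half-site. The X-box searched was the half-site GTTGCC, then the letters AT, then the reverse complement of the half-site, GGCAAC. It reads the same on both strands, and both half-sites are part of it. The windows are those of ABAT and COQ10A at their first starts and that of COQ10B at its second start, which the intervals covered more fully than its first. Also shown is a stretch of 161 bases before the ABAT start numbered 3. This stretch spans start number 2, at position 8712837, and held the closest match of any window of the 4 genes and no interval.
ABAT first start, chr16:8674367-8674666: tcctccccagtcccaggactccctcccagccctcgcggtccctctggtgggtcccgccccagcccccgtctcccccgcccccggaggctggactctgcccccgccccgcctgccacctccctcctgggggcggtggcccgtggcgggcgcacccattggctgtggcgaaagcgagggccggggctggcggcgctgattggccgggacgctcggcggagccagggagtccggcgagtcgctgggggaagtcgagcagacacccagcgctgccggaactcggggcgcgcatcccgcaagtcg
COQ10A first start, chr12:56266692-56266991: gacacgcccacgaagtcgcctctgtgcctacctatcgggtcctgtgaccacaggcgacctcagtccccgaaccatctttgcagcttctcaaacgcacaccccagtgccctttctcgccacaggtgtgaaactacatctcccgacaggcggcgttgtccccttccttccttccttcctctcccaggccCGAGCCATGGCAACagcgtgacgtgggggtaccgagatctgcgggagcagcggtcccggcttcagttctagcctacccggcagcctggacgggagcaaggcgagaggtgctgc
COQ10B second start, chr2:197453755-197454054: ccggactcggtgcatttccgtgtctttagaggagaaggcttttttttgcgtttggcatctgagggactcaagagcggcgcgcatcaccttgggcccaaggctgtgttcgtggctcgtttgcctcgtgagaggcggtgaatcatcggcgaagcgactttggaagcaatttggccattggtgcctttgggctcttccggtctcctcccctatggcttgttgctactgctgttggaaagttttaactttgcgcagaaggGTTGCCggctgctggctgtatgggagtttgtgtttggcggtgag
ABAT before start number 3, chr16:8712770-8712930: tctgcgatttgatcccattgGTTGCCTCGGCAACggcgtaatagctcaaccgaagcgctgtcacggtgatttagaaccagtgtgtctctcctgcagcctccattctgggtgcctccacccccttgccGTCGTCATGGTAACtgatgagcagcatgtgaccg

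After Nutlin-3a, 4 of the 4 genes had an interval inside or within 10 kb, as did 266 of all 20037 protein-coding genes (1.33%). After DMSO, 1 of the 4, ATP5IF1, had one, against 64 of 20037 (0.319%). Since the genes were chosen by these positions, neither count is a finding. The 4 genes held 6 Nutlin-3a intervals and 1 DMSO interval. ABAT and COQ10A had 1 each after Nutlin-3a, while COQ10B and ATP5IF1 had 2. Of the 266 genes with a Nutlin-3a interval, 36 (13.5%) had 2 or more.

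**Figure D1:**
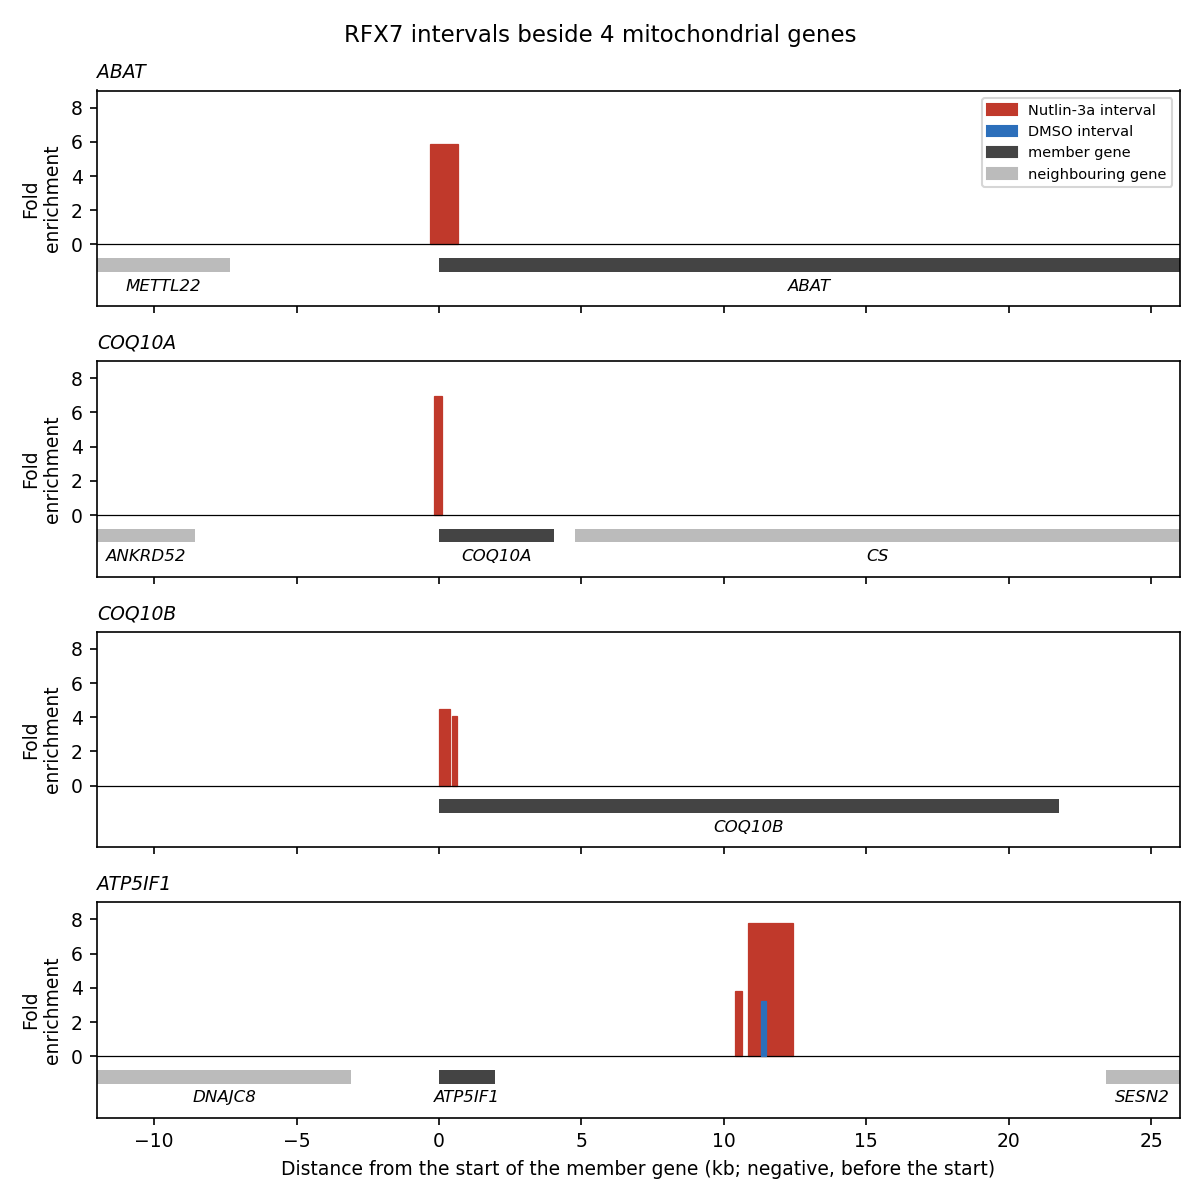
RFX7 intervals beside the 4 genes, with distance from the start of each gene in kb on the horizontal axis and the authors' fold enrichment on the vertical axis. Bars span the interval (red, Nutlin-3a; blue, DMSO), dark boxes are the 4 genes and light boxes their protein-coding neighbours. Intervals of ABAT, COQ10A and COQ10B sit at the gene start, and those of ATP5IF1 lie between it and SESN2, with the 177 bp DMSO interval inside the 1591 bp Nutlin-3a interval.

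At ABAT, the Nutlin-3a interval lay at chr16:8674286-8675297 and was 1012 bp wide, the number 22 of 304 by width. It covered the first RefSeq start at position 8674617, with 331 bases before the start and 681 from the start onward. It ranked 104 of 304 by fold enrichment, at 5.85, and 85 by −log10 q, at 19.2. ABAT is 109954 bp long and has 4 annotated starts, of which the interval covered 1. The second start, 38220 bp downstream, and the 2 after it had no base in an interval of either list. No DMSO interval lay inside ABAT or within 10 kb, and the nearest on the chromosome was 51906 kb away. The only other protein-coding gene within 10 kb was METTL22, a methyltransferase gene whose end lay 7518 bp from the midpoint.

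The COQ10A interval was high in its list by both values, with a width near the list median of 339.5 bp. It lay at chr12:56266755-56267060, was 306 bp wide (rank 174 by width), and ranked 66 of 304 by fold enrichment, at 6.95, and 58 by −log10 q, at 24.8. Its midpoint was 34.5 bp before the first RefSeq start, with 187 bases before the start and 119 from it onward. This promoter lies near another gene of mitochondrial metabolism: CS, citrate synthase, which catalyses the first step of the citric acid cycle, has its nearest boundary 4792 bp from the midpoint. ANKRD52, a regulatory subunit of protein phosphatase 6, was 8524 bp away on the other side. COQ10A itself was by far the nearest of these genes.

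At COQ10B, the paralogue, 2 weaker Nutlin-3a intervals were separated by 71 bp. The first, chr2:197453561-197453937, was 377 bp wide and ranked 170 by fold enrichment, at 4.47, and 134 by −log10 q, at 11.2. The second, chr2:197454009-197454183, was 175 bp wide and ranked 202 by fold enrichment, at 4.09, and 206 by −log10 q, at 7.10. The gene has 2 annotated starts, at positions 197453552 and 197454005, and neither interval covered one: the first interval began 9 bp after the first start, and the second began just past the second start. Together they spanned 623 bp. Both ranked below the COQ10A interval in the same list, a difference that has no replicate error behind it. No protein-coding gene other than COQ10B lay within 10 kb, and no DMSO interval lay within 10 kb of either paralogue.

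The ATP5IF1 intervals were of another kind, since they lay past the gene, toward SESN2. The stronger Nutlin-3a interval, chr1:28246955-28248545, was 1591 bp wide, the fifth widest of 304, and ranked 36 by fold enrichment, at 7.80, and 57 by −log10 q, at 25.6. Its midpoint was 9650 bp beyond the end of ATP5IF1 and 11626 bp from its start, and 11768 bp before the nearest boundary of SESN2. DNAJC8, on the other side of ATP5IF1, had its nearest boundary 14721 bp from that midpoint. SESN2, named after its position was seen, encodes a sestrin, a stress-induced inhibitor of mTORC1 signalling and a known p53 target. A smaller Nutlin-3a interval, chr1:28246528-28246744, lay 210 bp to its left and ranked 224 by fold enrichment, at 3.81, and 230 by −log10 q, at 6.25. ATP5IF1 thus had the strongest and the weakest of the 6 intervals. From the midpoint of the narrow interval, SESN2 was 12882 bp and DNAJC8 13607 bp away. Which gene the intervals act on cannot be read from their positions.

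This was the only one of the 4 loci listed under both treatments. The DMSO interval, chr1:28247415-28247591, was 177 bp wide, lay wholly inside the wider Nutlin-3a interval, and had its midpoint 247 bp to the left of that one. Its fold enrichment was 3.25 (rank 55 of 213) and its −log10 q was 2.45 (rank 113), beside a list median of 2.49 and a minimum of 1.32. Of the 6 Nutlin-3a intervals, 1 was overlapped by a DMSO interval, and in the whole Nutlin-3a list 22 of 304 (7.24%) were. For ABAT, COQ10A and COQ10B the lists show only that no DMSO interval was called. Without read counts this does not separate lower binding from too few reads.

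**Figure D2:**
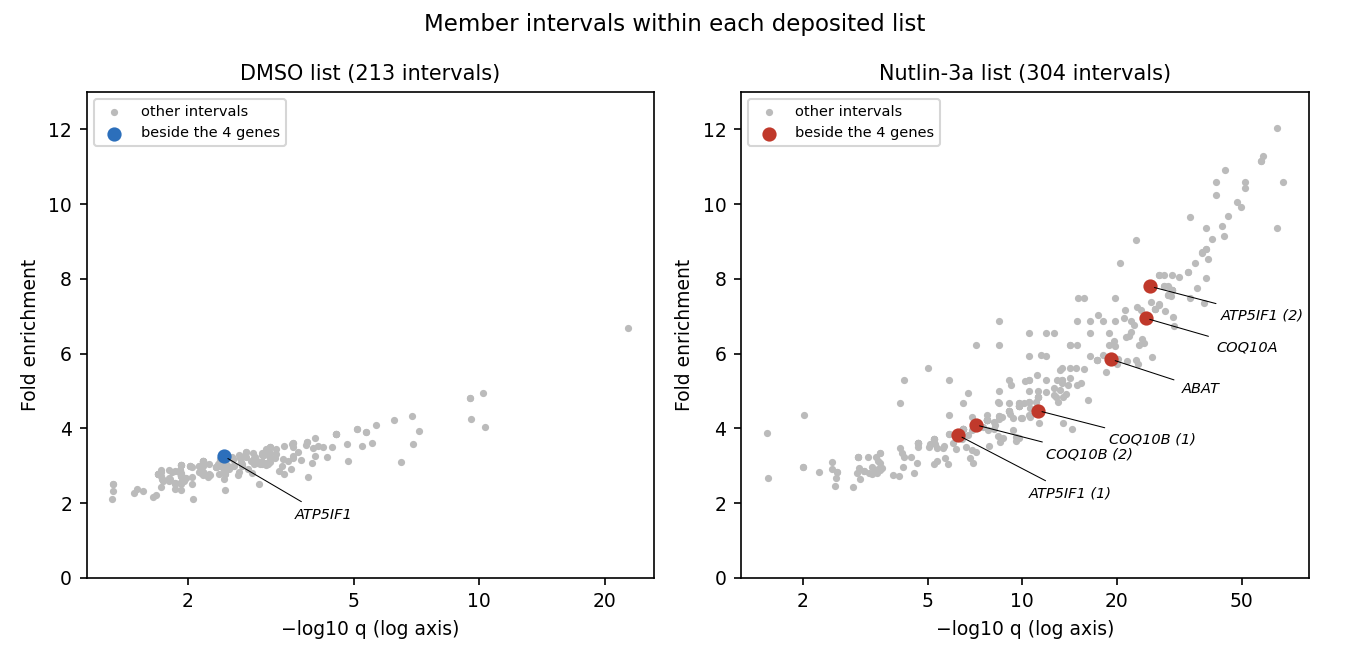
The authors' fold enrichment against −log10 q (log axis) for every interval of the DMSO list (left, 213) and the Nutlin-3a list (right, 304), with the intervals beside the 4 genes in colour and numbered from left to right on the chromosome where a gene has several. The 6 Nutlin-3a intervals run from a fold enrichment of 3.81 to 7.80, in the same order on both axes, and the DMSO interval of ATP5IF1 sits near the median −log10 q of its list.

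Ordered by −log10 q, the Nutlin-3a intervals followed as ATP5IF1 (the wide one), COQ10A, ABAT, COQ10B (first), COQ10B (second) and ATP5IF1 (the narrow one). The order by fold enrichment was the same. The top 2 were adjacent in rank by −log10 q, 57 and 58, and rank 58 was shared with other intervals of the list. No error is available to separate the top 2 or any other neighbours in the order. None of the 6 was among the highest values of the list, whose fold enrichment reached 12.03 and whose −log10 q reached 67.6. The strongest interval of each of the 4 genes was above the list median of 10.2 for −log10 q. By fold enrichment this held for 3 of the 4, since the stronger COQ10B interval, at 4.47, was below the list median of 4.71. Width followed another order: the ABAT interval was more than 3 times as wide as that of COQ10A, 1012 against 306 bp, at a lower rank.

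The choice by position also bounds the distance to the gene start, most tightly for the short genes COQ10A and ATP5IF1, so these distances are a description. In the Nutlin-3a list, 4 of the 6 intervals had a midpoint within 1 kb of a start of their gene, namely those of ABAT, COQ10A and COQ10B. Of the 238 intervals of the list within 10 kb of any protein-coding gene, 119 (50%) had a midpoint within 1 kb of a RefSeq start of such a gene. The ABAT and COQ10A intervals covered the start itself, as did 56 of the 238 (23.5%) for some protein-coding gene. Both intervals of COQ10B lay on the transcribed side of the first start, and those of ATP5IF1 lay outside the gene. The 10 kb limit mattered only for ATP5IF1, whose midpoints were 8536, 9403 (DMSO) and 9650 bp beyond its end. Past the limit, the next interval of either list was 1009 kb or more from each of the 4 genes.

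The promoter windows differed in how closely they matched the X-box. The first COQ10A window held a match with 3 mismatches at chr12:56266879-56266892, inside the interval and 22 bp from its midpoint. Its right half-site, GGCAAC, was complete, and all 3 mismatches were in its left half-site, CGAGCC. Of 34943 promoter windows in the RefSeq table, 1173 (3.36%) held a match with at most 3 mismatches. Among the 114 windows with at least 150 of their 300 bases in a Nutlin-3a interval, 11 (9.65%) did, the first COQ10A window among them. With at most 2 mismatches the shares were 1 of 114 (0.877%) and 1.13% of all windows. A count of 1 is too small to order these shares.

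At ABAT the match and the interval were apart. The window of the first start lay in the interval with all 300 bases, yet its closest stretch had 6 mismatches, which 94.9% of all windows matched or bettered, and it held no GTTGCC on either strand. The windows of starts number 2 and 3 overlap and shared a match with 2 mismatches at chr16:8712790-8712803, with both half-sites complete and the mismatches confined to the 2 letters between them. A match as close was held by 1.13% of all windows. A further match with 3 mismatches followed 93 bp downstream, at chr16:8712897-8712910. Both lay about 38 kb from the interval (38005 and 38112 bp from its midpoint), in windows with no base in an interval of either list.

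In COQ10B no window held a match within 3 mismatches. The closest stretch had 5 mismatches in the first window and 6 in the second. Neither window held the midpoint of either interval, and the interval bases outside the windows were not scanned. The second window had 229 bases in the 2 intervals and held a single half-site, GTTGCC, at chr2:197454011-197454016, inside the second interval. A half-site GTTGCC on either strand occurred in 12.2% of all windows and in 27.2% of the 114 windows covered by Nutlin-3a intervals. The second COQ10B window and the first COQ10A window are themselves among those 27.2%. The wider half-site GTTNCC, which includes GTTGCC, was found in 45.4% and 48.2%, and at both COQ10B starts and the first COQ10A start, but not at the first ABAT start. The ATP5IF1 window, with 6 mismatches at its closest and no half-site of either form, lay outside all intervals, and the sequence under its intervals was not analysed here. A match of letters is a description of the window and does not show a bound site.

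**Figure D3:**
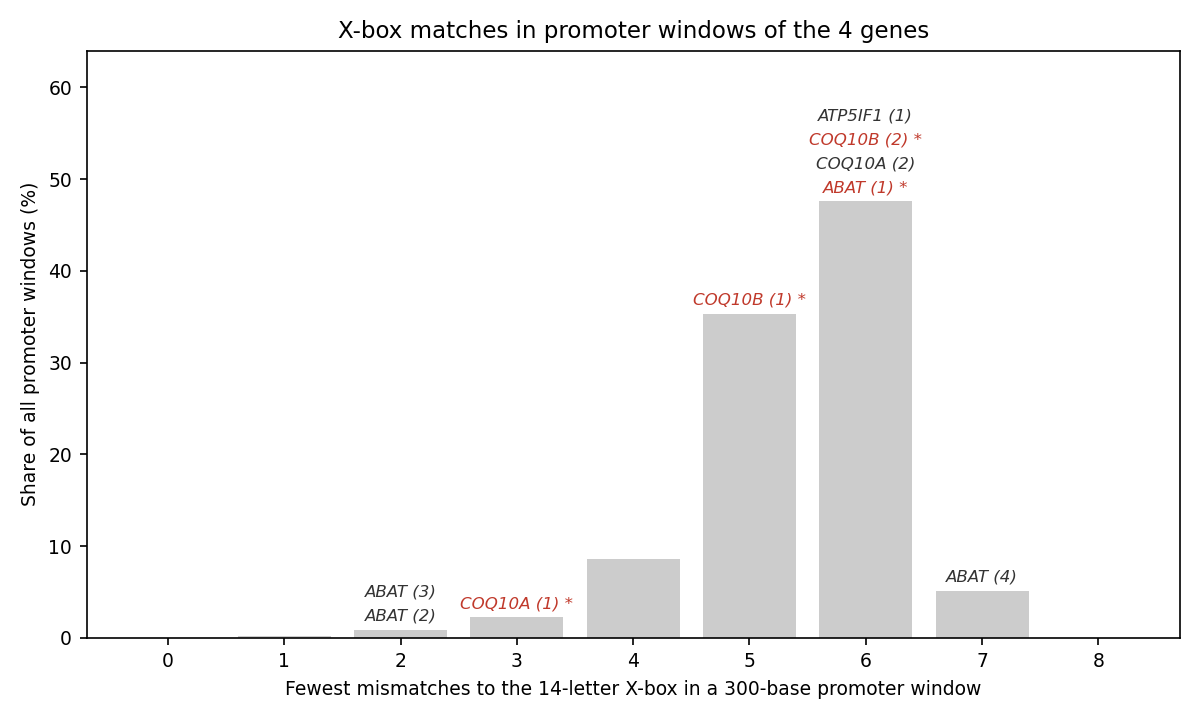
Share of 34943 promoter windows (bars, %) by their fewest mismatches to the 14-letter X-box, with the 9 windows of the 4 genes named above their class. Numbers in brackets count the annotated starts of a gene from left to right, and red names with a star have bases in a Nutlin-3a interval. COQ10A (1) is the only starred window with at most 3 mismatches, and ABAT (2) and (3), with 2, are not starred.

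Base composition of these windows also varied. The first ABAT window was 76.3% G or C, above 92.7% of all windows, and the first COQ10A and COQ10B windows were at 63.0% and 65.3%. The second COQ10B window was at 55.0% and the ATP5IF1 window at 58.7%, the median of all windows. The median of the 114 windows covered by Nutlin-3a intervals was 65.0%.

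Other genes of the same 3 pathways had no interval within 10 kb. The lists held 8 further genes of GABA metabolism and transport (such as GAD1 and ALDH5A1, which make GABA and oxidise its breakdown product), 11 of coenzyme Q synthesis (such as PDSS1 and COQ2, which make and attach its side chain) and 20 of the ATP synthase and its assembly (such as ATP5F1A and ATP5F1B, subunits of its catalytic head). After Nutlin-3a, 0 of 39 had an interval, which allows a share of up to 7.69%, beside the 1.33% of all protein-coding genes. After DMSO, 0 of 39 had one, with the same limit, beside 0.319%. Lists of this size could thus not show a share below that of all genes. Just outside the limit was ATP5MC2, a gene of the membrane ring of the ATP synthase, with a Nutlin-3a interval 14632 bp away. That interval ranked 95 by −log10 q, at 16.5, with a fold enrichment of 5.93.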

How the data were processed

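U2OS RFX7 ChIP-seq after Nutlin-3a or DMSO was read from 2 deposited interval lists, 1 per treatment, with the 2 replicates of each merged by the authors. The submitters' processing notes name MACS2 2.2.7.1, bedtools 2.29.2, SAMtools 1.10 and build hg38. How replicates were merged is not given in the sources used here. Each row holds the authors' fold enrichment (a ratio), −log10 q and a score; the deposited score equalled 10 times the −log10 q, cut to a whole number, in every row and was not used. No summit was given, so interval midpoints were used. Inputs and single replicates were not analysed here.

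Genes came from RefSeq GRCh38.p14 on the assembled chromosomes. That table gives no exons, so no interval was placed in an exon, intron or UTR. Starts, strands and promoter sequences came from the RefSeq promoter table. Intervals were matched to genes and ranked, and promoter windows were scanned, with Python 3.11.15, pandas 2.3.3 and NumPy 2.4.6. The code was tested on planted intervals and motifs. Interval bases outside the promoter windows were not scanned. No test was run, since each treatment has 1 list. Shares of 0 carry the limit that 3 counts allow, which covers counting error only. Named genes were the 4 genes, pathway genes with an interval within 10 kb, and protein-coding genes within 10 kb of an interval of the 4. SESN2, DNAJC8 and ATP5MC2, and examples from the pathway lists, were added afterwards, as was the 150-base minimum. The genes, lists and motif were chosen with earlier results of these data known. Alternatives varied the distance, the ranking, the mismatches allowed, the rule for overlap and the least −log10 q.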

Additional observations from a re-analysis of the deposited data

How the results depend on the processing

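For counts and ranks, 46 alternative values were computed, of which 15 moved beyond 1.5 times the count or outside the 95% Wilson interval of the rank, and 31 did not. That interval treats a rank as a share of independent draws, which it is not. It serves only as a yardstick for the size of a shift. A further 7 values took distances to the gene start from the nearest edge in place of the midpoint, which shortens them by construction: to 0 bp from 174.5 bp for ABAT and from 34.5 bp before the start for COQ10A, and to 9 bp from 197 bp for the first COQ10B interval. With 5 kb in place of 10 kb, ATP5IF1 dropped out. This left 3 of 4 genes with a Nutlin-3a interval, beside 1.11% of all genes, and 0 with a DMSO interval, beside 0.294%. With 50 kb, 1 of the 39 other pathway genes, ATP5MC2, had a Nutlin-3a interval, beside 2.94% of all genes. The DMSO count was also 0 at a −log10 q of at least 5, which left 18 DMSO intervals and 0.0699% of all genes. It was 0 again at or above the list's median, beside 0.205% of all genes. Of the 6 Nutlin-3a intervals, 0 were overlapped when 50% of both intervals was required, and 2 when a DMSO midpoint within 1 kb sufficed. With at most 2 mismatches, 1 gene, ABAT, kept an X-box match. Ranks are given here as the rank divided by the length of the list, where tied intervals share the smallest rank. By fold enrichment, the share moved for ABAT from 28.0 to 34.2%, for the first COQ10B interval from 44.1 to 55.9%, for the wide ATP5IF1 interval from 18.8 to 11.8% and for its DMSO interval from 53.1 to 25.8%. Joining neighbours within 1 kb put both COQ10B intervals at 51.6% and the narrow ATP5IF1 interval at 22.1%, by construction. Among rows within 10 kb of a protein-coding gene, the DMSO interval was at 62.7%. The cause of the other shifts was not tested.

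No paired analysis was possible because the replicates were merged into 1 list per treatment, and for the same reason none was left out in turn. The unknown depth limits any reading of a missing DMSO interval.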
